A study of Mus musculus with 10 samples.

Results

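Iron uptake, storage and export in the left ventricle (LV) was followed through 10 genes, taken by symbol for their known place in iron handling, out of 55401 genes listed for each mouse. The LV samples came from WT mice on a C57BL/6 background that were 4 weeks old, with 1 RNA library per mouse. In 5 mice the ascending aorta had been narrowed by surgery shortly after birth (nAAC, neonatal ascending aorta constriction), so that the LV grew while pumping against a raised pressure, and 5 mice had sham surgery. No allele or drug separated the groups, all pups stayed with their mothers, and both sexes were used.

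Most iron reaches cells bound to transferrin and enters through transferrin receptor 1, after which an endosomal reductase and a divalent metal transporter bring it to the cytosol. Iron that is not used in heme and iron-sulfur proteins, of which the mitochondria of cardiomyocytes hold many, is stored in ferritin shells or leaves through ferroportin, and the hormone hepcidin removes ferroportin from the cell surface. In iron-poor cells the iron regulatory proteins IRP1 and IRP2 bind a short hairpin of the mRNA, the iron-responsive element (IRE), which blocks translation when it lies in the 5′ untranslated region (UTR) and protects the mRNA from decay when it lies in the 3′ UTR.

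The IRE is shown here because it divides these genes by the side of the coding region on which it lies. GENCODE M21 transcripts (build GRCm38) were searched on the sense strand for an unpaired C, 5 bases, the loop CAGTGN with any base but G at its end, and 5 bases that pair with the first 5, with at most 1 unpaired base added on the 3′ side. The loop is in capitals. The transferrin receptor gene Tfrc held 4 matches in the 3′ UTR of its transcript, on the plus strand at chr16:32631219-32631247, chr16:32631598-32631626, chr16:32631663-32631691 and chr16:32631710-32631738, in that order.
Tfrc, first: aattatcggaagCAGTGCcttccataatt
Tfrc, second: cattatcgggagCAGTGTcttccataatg
Tfrc, next: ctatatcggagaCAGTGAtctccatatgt
Tfrc, last: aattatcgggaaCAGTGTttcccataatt

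The divalent metal transporter gene Slc11a2 held 1 match, with the added unpaired base, in the 3′ UTR of one annotated transcript (minus strand, chr15:100395152-100395181). Both ferritin chains and the ferroportin gene Slc40a1 held theirs in the 5′ UTR, at chr19:9982732-9982760 on the plus strand for Fth1, and on the minus strand at chr7:45459779-45459807 for Ftl1 and chr1:45925465-45925493 for Slc40a1.
Slc11a2: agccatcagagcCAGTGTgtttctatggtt
Fth1: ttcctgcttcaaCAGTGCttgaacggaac
Ftl1: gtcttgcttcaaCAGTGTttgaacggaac
Slc40a1: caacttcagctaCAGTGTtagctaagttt

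In all, 5 of the 10 genes held a match, against 745 of 21875 protein-coding genes (3.41%). The 10 genes were taken for their known place in iron handling, so the higher share was built into their choice and was not tested. A match is a stretch of letters and was not tested for binding. Slc39a14, Steap3, Hamp, Aco1 and Ireb2 held none in the transcripts searched.

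**Figure D1:**
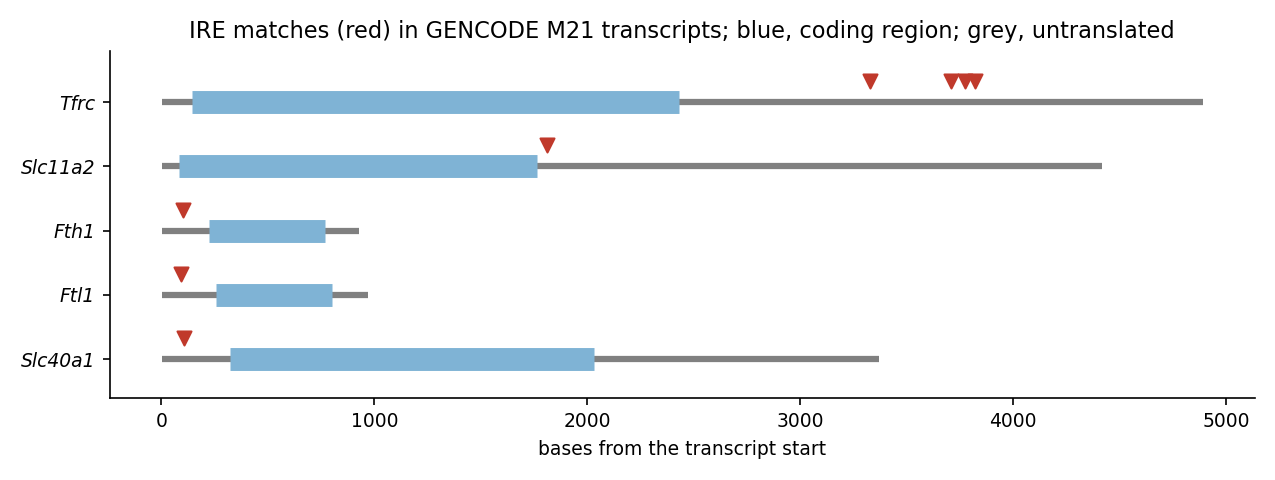
Position of the IRE matches (red triangles) along 5 transcripts, in bases from the transcript start, with the coding region in blue and untranslated regions as a grey line. Tfrc carries 4 triangles and Slc11a2 carries 1 to the right of the coding region, and Fth1, Ftl1 and Slc40a1 carry 1 each to the left of it.

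Values are FPKM, fragments per kilobase of transcript scaled to the sequenced total, as deposited, so levels of different genes are given per length. Read counts were not among the deposited columns, and the depth, estimated from the most frequent ratio of coverage to FPKM, was 4.86 to 6.82 gigabases in nAAC and 5.06 to 5.24 in sham libraries. The 11867 genes whose mean FPKM was 1 or more were tested with limma on log2(FPKM + 1), and the log2 fold change (FC) of a gene is nAAC against sham on that scale, which understates the change of weakly expressed genes. A gene rose or fell where the Benjamini-Hochberg adjusted p over all tested genes was below 0.05, and it was a differentially expressed gene (DEG) where the absolute log2 FC was also above 1. The median log2 FC of all tested genes was 0.22 on this scale, −0.00 after median-ratio scaling and 0.39 with TPM in place of FPKM, so the changes of the main genes are also given relative to that shift. Among sham libraries, replicate 4 stood apart, since its levels fell with transcript length (Spearman −0.66 over 11860 genes against the other sham libraries, where the others lay between −0.02 and 0.47). Xist was at an FPKM of at least 1 in 4 of 5 nAAC mice and 2 of 5 sham mice, so the sexes were not evenly divided.

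In the nAAC LV the mRNA of the transferrin receptor was several times higher and that of ferroportin several times lower than in the sham LV, while the heavy chain of ferritin did not pass the test. Of 9 genes tested, Tfrc, Slc11a2, Slc39a14 and Ftl1 rose, Slc40a1 fell, and Steap3, Fth1, Aco1 and Ireb2 were not called, so that 5 of 9 were called, whereas 31.7% of all tested genes were called, 27.1% rising and 4.60% falling. DEGs were Tfrc, upward, and Slc40a1, downward, against 5.01% and 0.893% of all tested genes. In 4 of the 9 genes (Tfrc, Slc11a2, Slc39a14 and Slc40a1) the values of the groups did not overlap, against 22.3% of all genes. The genes were chosen with earlier results of these data known, and these shares were not tested against those of all genes. The median log2 FC of the 9 genes was 0.16, and that of all genes 0.22. Without sham 4 the same number of the 9 genes was called, 5, and the log2 FC was 2.15 for Tfrc, 0.51 for Slc11a2, 0.35 for Slc39a14, 0.78 for Ftl1 and −1.33 for Slc40a1.

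**Figure D2:**
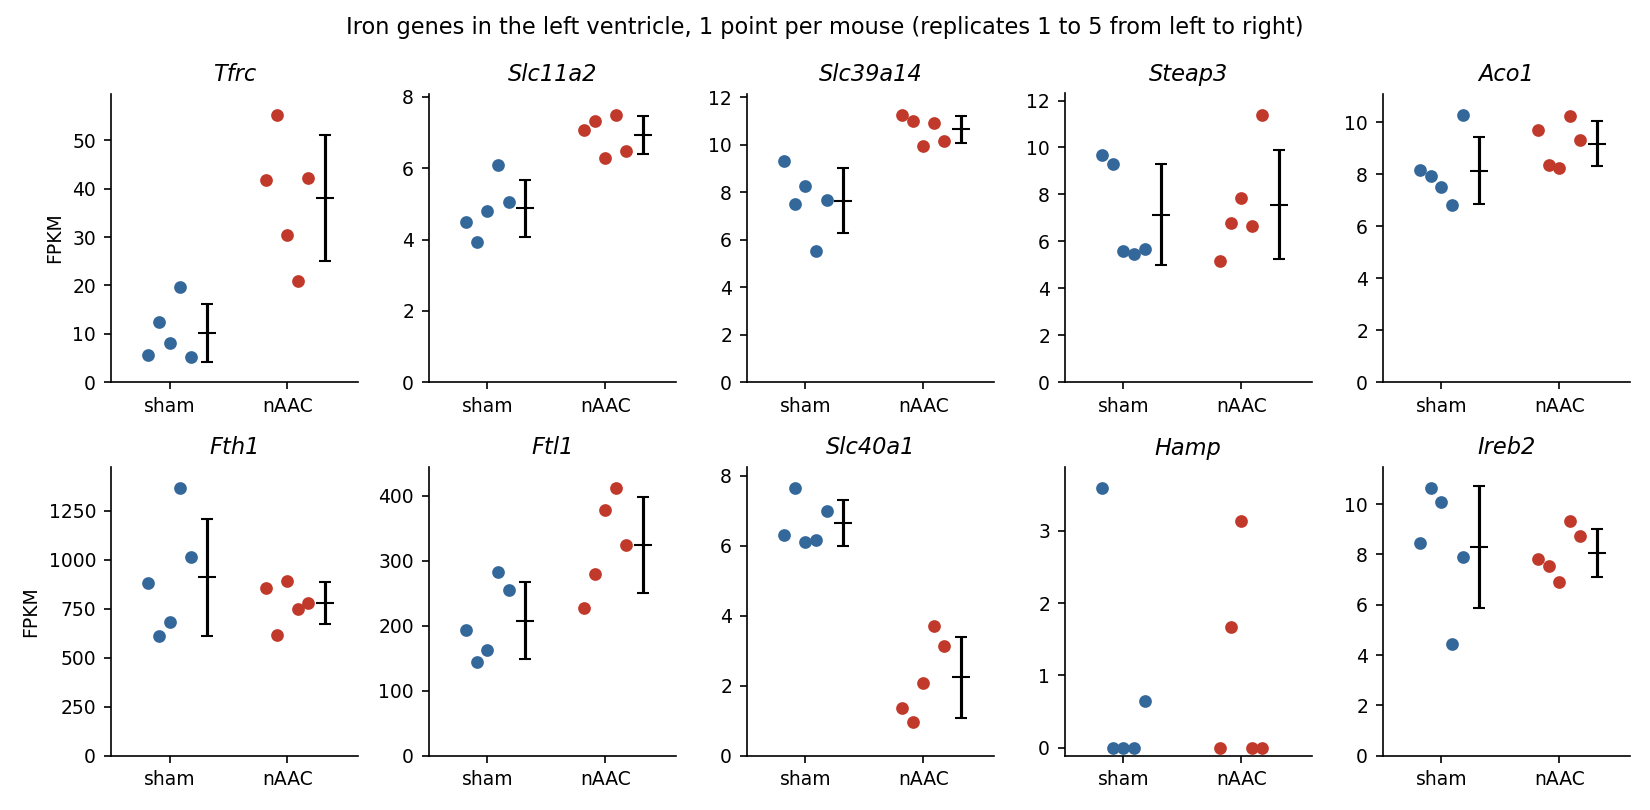
FPKM of each of the 10 iron genes in every mouse, sham in blue and nAAC in red, with the mean and SD of 5 mice beside each group as black bars (not drawn for Hamp). The nAAC points of Tfrc, Slc11a2 and Slc39a14 all lie above the sham points, those of Slc40a1 all lie below, and the points of the other genes mix.

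Tfrc (ENSMUSG00000022797, chr16:32608920-32632794, plus strand) encodes transferrin receptor 1, the entry point of transferrin-bound iron. Its level was 41.9, 55.2, 30.4, 20.8 and 42.2 FPKM in nAAC mice 1 to 5 and 5.64, 12.4, 8.05, 19.6 and 5.18 FPKM in sham mice 1 to 5. Every nAAC mouse was above every sham mouse, but nAAC 4 and sham 4 lay next to each other across the gap, and sham 4 was the highest of its group. The means were 38.1 ± 13.1 and 10.2 ± 6.0 FPKM (SD, n = 5 each), a ratio of 3.75. Its log2 FC was 1.89 (SE 0.33, limma adjusted p = 0.00086), the 107th largest of 11867 and 1.66 above the median of all genes.

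Tfrc is also abundant in immature red cells, and bulk LV samples do not separate more cells of a type from more RNA per cell. None of the 5 erythroid markers tested rose or fell, and their summed FPKM, with 3 further markers, ranged from 3396 to 8802 in nAAC and from 2292 to 8661 in sham samples, nearly all of it globin mRNA. Of the membrane and skeleton markers that define red cell precursors, Slc4a1 and Epb42 never exceeded 0.214 and 0.0273 FPKM. The erythroid sum was highest in nAAC 3 and sham 1, and Tfrc was highest in nAAC 2 and sham 4. The part of red cells in the Tfrc values was not tested.

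Slc11a2 (ENSMUSG00000023030, chr15:100387898-100425072, minus strand) encodes the divalent metal transporter that releases iron from the endosome. It was measured at 7.08, 7.33, 6.29, 7.5 and 6.48 FPKM in nAAC mice 1 to 5, and at 4.49, 3.93, 4.81, 6.10 and 5.06 FPKM in sham mice 1 to 5. The groups did not overlap, and sham 4 was again the sham mouse closest to the nAAC mice. The rise was small, from 4.88 ± 0.802 to 6.94 ± 0.528 FPKM (SD, n = 5 each), with a log2 FC of 0.44 (SE 0.11, limma adjusted p = 0.0109), which is 0.22 above the median of all genes. The call was lost after median-ratio scaling (log2 FC 0.20, adjusted p = 0.185), after upper-quartile scaling (0.21, adjusted p = 0.146), after removal of the trend on GC content and length (0.17, adjusted p = 0.279) and with Xist as a covariate (0.39, adjusted p = 0.0811), by the same limma test.

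Slc39a14 (ENSMUSG00000022094, chr14:70303469-70351425, minus strand) encodes ZIP14, a carrier of iron that is not bound to transferrin. Its FPKM was 11.3, 11, 9.94, 10.9 and 10.2 in nAAC mice 1 to 5 and 9.32, 7.49, 8.24, 5.53 and 7.67 in sham mice 1 to 5, again without overlap. The nAAC mice were close together and the sham mice more spread, at 10.6 ± 0.568 against 7.65 ± 1.38 FPKM (SD, n = 5 each). The log2 FC was 0.44 (SE 0.13, limma adjusted p = 0.0167), also 0.22 above the median of all genes, and median-ratio scaling brought it to 0.19 (adjusted p = 0.373), upper-quartile scaling to 0.20 (adjusted p = 0.384), scaling without mitochondrial genes to 0.43 (adjusted p = 0.0548) and removal of the trend on GC content and length to 0.12 (adjusted p = 0.438).

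Steap3 (ENSMUSG00000026389, chr1:120190757-120272705, minus strand), the endosomal reductase that prepares iron for Slc11a2, did not pass the test. It was at 5.17, 6.78, 7.84, 6.66 and 11.4 FPKM in nAAC mice 1 to 5 and at 9.68, 9.29, 5.60, 5.46 and 5.66 FPKM in sham mice 1 to 5. The groups overlapped over most of their range, the highest nAAC mouse being replicate 5 and the highest sham mice replicates 1 and 2. Its log2 FC was 0.07 (SE 0.20, limma adjusted p = 0.804), with a sign that changed under other scalings.

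Ferroportin, the exporter, went the other way. Slc40a1 (ENSMUSG00000025993, chr1:45908068-45926523, minus strand) was at 1.36, 0.949, 2.07, 3.70 and 3.12 FPKM in nAAC mice 1 to 5 and at 6.29, 7.63, 6.09, 6.17 and 7.0 FPKM in sham mice 1 to 5. The sham mice were close together and the nAAC mice all lay below them, with nAAC 2 lowest and nAAC 4 highest. The means were 2.24 ± 1.16 and 6.64 ± 0.662 FPKM (SD, n = 5 each), so that the sham mean was 2.96 times the nAAC mean. Its log2 FC was −1.31 (SE 0.21, limma adjusted p = 0.00048), or −1.53 relative to the median of all genes, and 11801 of the 11867 genes ranked at or above it.

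Ferroportin is abundant in macrophages that recycle red cells. The 8 macrophage and leukocyte markers summed to 84.5 to 181 FPKM in nAAC and 72.7 to 143 FPKM in sham samples, and none of the 7 tested rose or fell. Cd163, a scavenger receptor of such macrophages that takes up hemoglobin bound to haptoglobin, had a log2 FC of −0.47 (limma adjusted p = 0.137), with mean levels of 4.85 FPKM in sham and 3.38 FPKM in nAAC samples. Every other tested marker of this list had a positive log2 FC, from 0.11 for Csf1r to 0.51 for Adgre1. The part of macrophages in the Slc40a1 values was not tested.

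Tfrc rose in 20 of 20 alternative analyses, with a log2 FC between 1.63 and 2.15 and a limma adjusted p between 0.000133 and 0.00778, and Slc40a1 fell in all 19 in which it could be tested, with a log2 FC between −1.68 and −1.15. Within each mouse, the ratio of Tfrc to Slc40a1 ranged from 5.64 to 58.2 in nAAC and from 0.740 to 3.18 in sham samples. On the log2 scale its mean was 4.19 ± 1.28 in nAAC and 0.44 ± 0.82 in sham samples (SD, n = 5 each), a difference of 3.75. The ratio does not depend on the scaling between libraries, and it combines 2 genes already described, so no test was made of it.

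**Figure D3:**
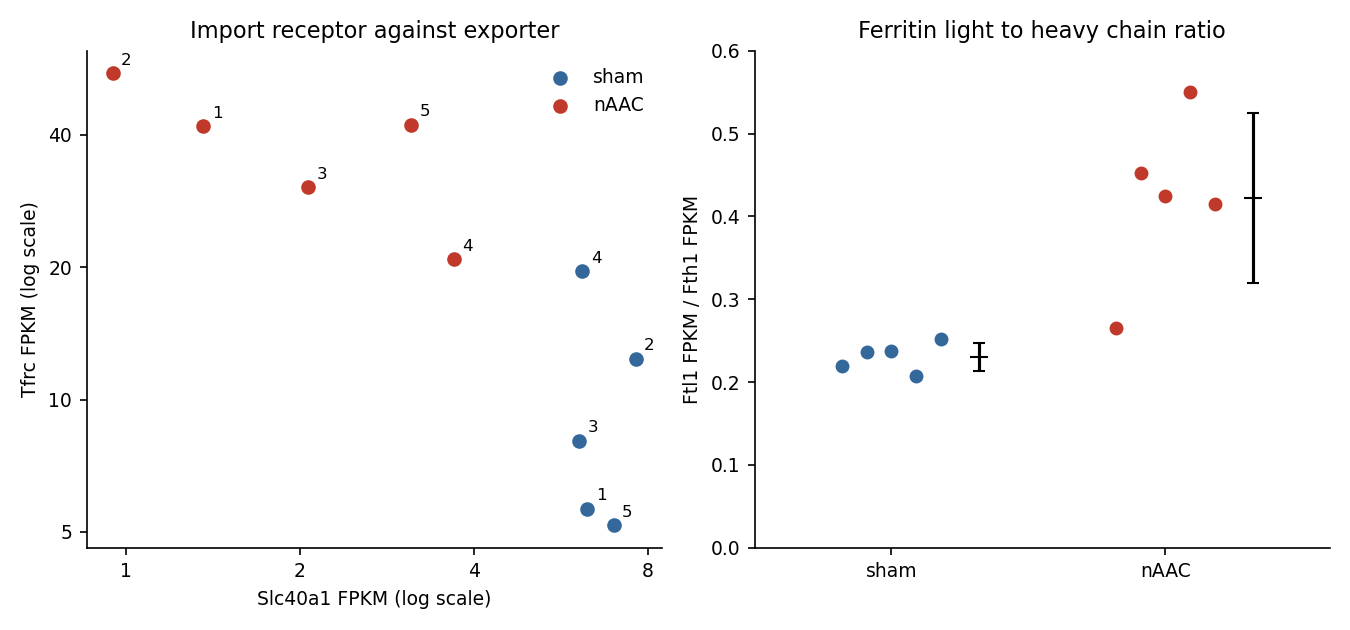
Left, Tfrc against Slc40a1 in FPKM on log axes, 1 point per mouse with its replicate number, sham in blue and nAAC in red. Right, FPKM of Ftl1 divided by FPKM of Fth1 in each mouse, with the mean and SD of 5 mice as black bars. All nAAC mice lie up and to the left of the sham mice on the left side, and on the right side the sham mice lie between 0.207 and 0.252 and the nAAC mice between 0.265 and 0.551.

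Ferritin, the store, is built of heavy chains (Fth1), which oxidize iron, and light chains (Ftl1), which help to form the mineral core. Fth1 (ENSMUSG00000024661, chr19:9980598-9985098, plus strand) was the most abundant of the 10 mRNAs, at 854, 617, 890, 746 and 780 FPKM in nAAC mice 1 to 5 and 879, 610, 684, 1364 and 1012 FPKM in sham mice 1 to 5. The groups overlapped, and sham 4 was far above the other sham mice. Its log2 FC of −0.18 (SE 0.21, limma adjusted p = 0.543) did not pass the test, nor did it in any of 20 alternatives, where it ranged from −0.49 to −0.01 with a limma adjusted p between 0.0801 and 0.983. Relative to the median of all genes it was −0.40.

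Ftl1 (ENSMUSG00000050708, chr7:45457944-45459884, minus strand) was at 227, 279, 378, 411 and 324 FPKM in nAAC mice 1 to 5 and at 193, 144, 162, 282 and 255 FPKM in sham mice 1 to 5. The groups overlapped, since nAAC 1 lay within the sham range and nAAC 2 just below sham 4. The means were 324 ± 74.1 and 207 ± 59.3 FPKM (SD, n = 5 each), with a log2 FC of 0.66 (SE 0.22, limma adjusted p = 0.0357), which is 0.43 above the median of all genes. The call was lost without nAAC 3, nAAC 4, nAAC 5, sham 1, sham 2 or sham 3, where the log2 FC was 0.59, 0.56, 0.65, 0.64, 0.54 and 0.58 and the limma adjusted p 0.0839, 0.0966, 0.07, 0.073, 0.085 and 0.088. It was also lost after median-ratio scaling (log2 FC 0.38, limma adjusted p = 0.153) and with Xist as a covariate (0.39, limma adjusted p = 0.301). The same held for upper-quartile scaling (0.39, limma adjusted p = 0.108), no filter (0.66, limma adjusted p = 0.089) and removal of GC content and length trends (0.29, limma adjusted p = 0.0584). Ftl1 was thus called in 9 of 20 alternatives.

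The mouse genome holds processed copies of ferritin genes, to which reads could be assigned. Of 9 annotated copies with at least 90% identity to Ftl1 over at least 200 bases, Ftl1-ps1, Ftl2-ps and Gm15590 had mean levels of 3.51, 1.98 and 0.954 FPKM, and all 9 together came to at most 3.46% of Ftl1 in any mouse. The only such copy of Fth1, Gm6977, was listed at 0 in every mouse. Gm10252 overlaps Ftl1 on the other strand and reached 0.119 FPKM.

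The light chain was higher relative to the heavy chain in every nAAC mouse than in any sham mouse. The ratio of Ftl1 to Fth1 in FPKM was 0.422 ± 0.103 in nAAC and 0.230 ± 0.0175 in sham samples (SD, n = 5 each), a log2 difference of 0.84, described without a test. The sham ratios were narrow, although sham 4 held the highest Fth1 and the highest Ftl1 of its group. Among nAAC mice, replicate 1 was lowest and lay just above the sham range.

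Hamp (ENSMUSG00000050440, chr7:30942368-30944032, minus strand), which encodes hepcidin, was below the filter, with a mean of 0.903 FPKM. It was at 1.66 FPKM in nAAC 2, 3.13 in nAAC 3, 3.59 in sham 1 and 0.644 in sham 5, and was listed at 0 in the other 6 mice. A two-sided exact permutation test of 5 against 5 mice gave p = 1. The 4 mice with Hamp above 0 had Myl7, which encodes the atrial myosin light chain, at 54.0, 79.8, 22.3 and 7.33 FPKM, nAAC 4 had Myl7 at 11.9 FPKM with Hamp listed at 0, and the part of atrial tissue in these values was not tested. Its near-identical neighbour Hamp2 did not exceed 0.117 FPKM.

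The mRNAs of the 2 regulators that bind the IRE did not pass the test. Aco1 (ENSMUSG00000028405, chr4:40143081-40198338, plus strand), which encodes IRP1, a protein that serves as cytosolic aconitase when it carries an iron-sulfur cluster, was at 9.69, 8.37, 8.23, 10.2 and 9.31 FPKM in nAAC mice 1 to 5 and 8.15, 7.91, 7.51, 6.82 and 10.3 FPKM in sham mice 1 to 5. The nAAC mice lay within the sham range, and the log2 FC was 0.16 (SE 0.12, limma adjusted p = 0.317). Ireb2 (ENSMUSG00000032293, chr9:54863789-54912530, plus strand), which encodes IRP2, was at 7.80, 7.55, 6.91, 9.33 and 8.71 FPKM in nAAC mice 1 to 5 and 8.44, 10.6, 10.1, 4.43 and 7.91 FPKM in sham mice 1 to 5. Sham 4 was the lowest of all 10 mice, and the log2 FC was 0.00 (SE 0.18, limma adjusted p = 0.989). IRP1 and IRP2 are controlled mainly as proteins, which were not measured here.

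In order of mean level over all mice, the genes were Fth1 (844 FPKM), Ftl1 (265), Tfrc (24.1), Slc39a14 (9.15), Aco1 (8.65), Ireb2 (8.18), Steap3 (7.35), Slc11a2 (5.91), Slc40a1 (4.44) and Hamp (0.903). Fth1 exceeded Ftl1, and Ftl1 exceeded Tfrc, without overlap within either group. In nAAC samples Tfrc was above Slc39a14 in 5 of 5 mice without overlap, whereas in sham samples its range overlapped that of its neighbour Ireb2, which it exceeded in 2 of 5 mice. Slc39a14, Aco1, Ireb2 and Steap3 were neighbours with overlapping ranges in both groups. Slc40a1 was above Slc11a2 in 5 of 5 sham mice and below it in 5 of 5 nAAC mice.

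**Figure D4:**
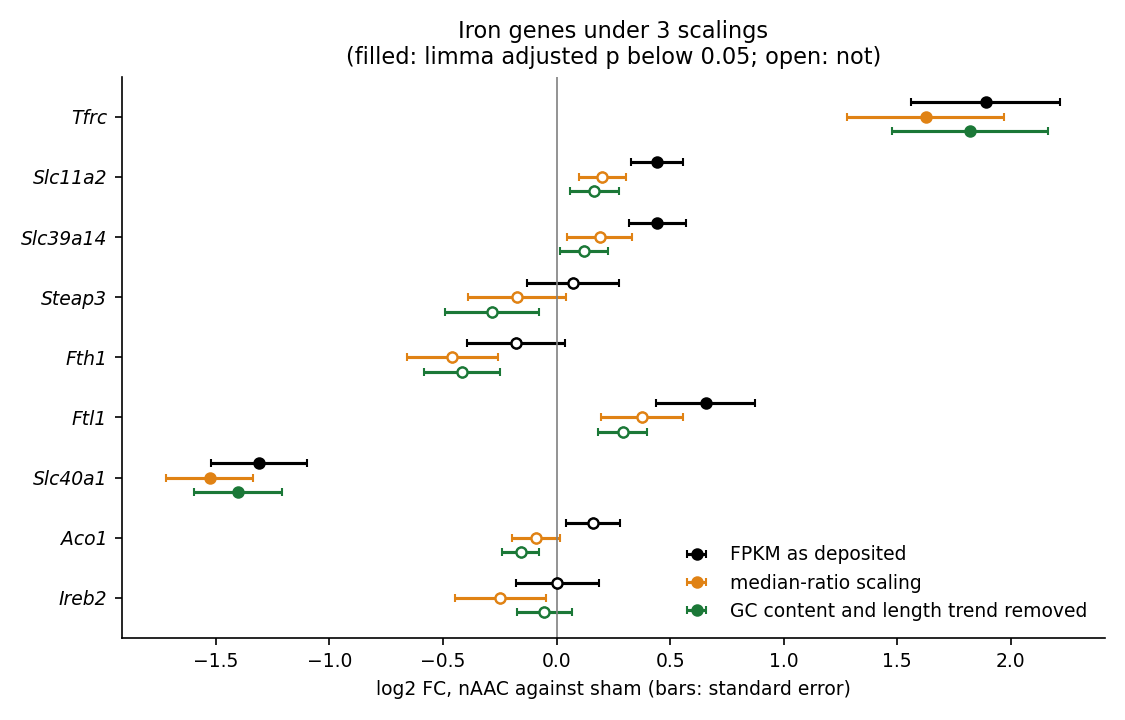
Log2 FC, nAAC against sham, of the 9 iron genes tested, with standard errors as bars, for FPKM as deposited (black), median-ratio scaling (orange) and values freed of trends on GC content and length (green). Filled points had a limma adjusted p below 0.05. Tfrc and Slc40a1 are filled in all 3 colours, and Slc11a2, Slc39a14 and Ftl1 in black alone.

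The wider iron and heme pathway was read from a fixed list. Of 83 further genes found in the tables, 67 passed the filter, 15 rose and 2 fell, against 27.1% and 4.60% of all tested genes, and their median log2 FC was 0.10 against 0.22 for all genes. The balance of directions turned with the scaling, to 6 up and 8 down with median-ratio scaling, 6 up and 8 down with upper-quartile scaling, and 8 up and 16 down with trends on GC content and length removed. Lrp1 and Lcn2 were DEGs upward and Scara5 was a DEG downward. The count of called genes fell from 17 to 11 without nAAC 4 and to 11 without sham 3. Transferrin itself was not analysed here.

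Of 5 tested iron carriers and membrane proteins, 2 rose and 1 fell, against 27.1% and 4.60% of all tested genes, with a median log2 FC of 0.17 against 0.22. Lcn2, lipocalin 2, which binds bacterial iron chelators and is induced in inflammation, was 13.9 ± 6.42 FPKM in nAAC and 2.13 ± 1.95 in sham samples (SD, n = 5 each; log2 FC 2.35, SE 0.35, limma adjusted p = 0.000267). Scara5, a scavenger receptor that takes up ferritin, fell from 7.02 ± 1.45 to 1.48 ± 1.21 FPKM (log2 FC −1.80, SE 0.26, limma adjusted p = 0.000217). Cp, ceruloplasmin, the copper oxidase that works with ferroportin, rose from 16.7 ± 2.10 to 32.4 ± 6.82 FPKM (log2 FC 0.90, SE 0.15, limma adjusted p = 0.000628), the opposite direction to ferroportin. None of these 3 genes overlapped between the groups, as was so for 22.3% of all tested genes. Each kept its call in every alternative in which it was tested. The other 2 tested genes of this role were not called.

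In heme handling, 4 of 9 tested genes rose and none fell, against 27.1% and 4.60% of all tested genes, with a median log2 FC of 0.26 against 0.22. Lrp1, an endocytic receptor of hemopexin-bound heme and of many other ligands, rose from 5.25 ± 0.992 to 19.1 ± 2.93 FPKM (log2 FC 1.69, SE 0.14, limma adjusted p = 2.63e-06). Hmox1, the inducible heme oxygenase that frees iron from heme, rose from 4.41 ± 0.894 to 8.62 ± 2.93 FPKM with overlapping groups (log2 FC 0.78, limma adjusted p = 0.0126), and kept its call in 16 of 20 alternatives, not after median-ratio scaling (0.54, limma adjusted p = 0.0599). The heme exporter Abcg2 had a log2 FC of 0.45 (limma adjusted p = 0.0467) and kept its call in 6 of 20 alternatives, missing it without any 1 library other than sham 2 and sham 5 (0.37 to 0.54 over all 10 libraries left out in turn). Slc48a1, a heme transporter of the endosome, was the remaining gene that rose (log2 FC 0.41, limma adjusted p = 0.0288). It was not called after median-ratio or upper-quartile scaling, with GC content and length trends removed, with Xist as a covariate or with replicate blocks. With single mice left out, the call of Slc48a1 was lost at least without nAAC 4 and without sham 3.

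Lrp1, Scara5 and Cp can come from fibroblasts and other interstitial cells as well as from cardiomyocytes. Fibroblast markers summed to 481 to 865 FPKM in nAAC and 344 to 371 FPKM in sham samples. Of these, 5 of 6 (Col1a1, Dcn, Tcf21, Lum and Postn) rose, against 27.1% of all tested genes, while Pdgfra was not called. Their part in the results on Lrp1, Scara5, Cp and Tfrc was not tested. Of 8 cardiomyocyte markers 2 rose, Actc1 and Actn2 (log2 FC 0.60 and 0.67), and 2 fell, Tnni3 and Pln (−0.82 and −0.86). Over all tested genes, 27.1% rose and 4.60% fell. The cardiomyocyte marker sums were 13097 to 20127 FPKM in nAAC and 15204 to 26176 FPKM in sham samples. The defining cardiomyocyte markers were abundant throughout, such as Myh6, which was not called, with mean levels of 1790 and 2149 FPKM in nAAC and sham samples.

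In heme synthesis, only Cpox, coproporphyrinogen oxidase, rose among 12 tested genes (13.3 ± 2.76 against 8.41 ± 1.39 FPKM, log2 FC 0.59, limma adjusted p = 0.013), none fell, and the median log2 FC was 0.02 against 0.22 for all genes, of which 27.1% rose. Cpox kept its call in 17 of 20 alternatives and missed it, for example, after median-ratio scaling (0.34, limma adjusted p = 0.0719). The rate-limiting enzyme outside red cells, Alas1, had a log2 FC of 0.00.

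Among genes of mitochondrial iron import and iron-sulfur cluster assembly, 3 of 22 rose and none fell, where 27.1% of all tested genes rose and 4.60% fell, with a median log2 FC of 0.17 against 0.22. Nubp1, a scaffold of the cytosolic cluster machinery, rose from 2.23 ± 0.366 to 3.93 ± 0.293 FPKM without overlap (log2 FC 0.61, limma adjusted p = 0.00083), and was not called with trends on GC content and length removed (0.28, limma adjusted p = 0.0566). Slc25a37, mitoferrin 1, which carries iron into mitochondria, rose from 2.05 ± 0.249 to 3.08 ± 0.351 FPKM without overlap (log2 FC 0.42, limma adjusted p = 0.00808). Its log2 FC was 0.22 with median-ratio scaling (limma adjusted p = 0.174) and it kept its call in 15 of 19 alternatives. Fdx2, a ferredoxin of cluster assembly, had a log2 FC of 1.0 (limma adjusted p = 0.0334) with overlapping groups, and was called without nAAC 1, nAAC 5, sham 4 or sham 5 but not without any other single library, where the log2 FC was 0.77 to 1.04 and the limma adjusted p 0.0531 to 0.0798. It kept its call in 10 of 20 alternatives. Among the losses were median-ratio scaling (0.76, limma adjusted p = 0.094), upper-quartile scaling (0.78, limma adjusted p = 0.0726) and Xist as a covariate (0.86, limma adjusted p = 0.177).

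The iron chaperone and turnover genes split. Fbxl5, the iron-sensing ubiquitin ligase subunit that targets IRP2 for degradation, fell from 13.0 ± 1.09 to 9.58 ± 0.933 FPKM without overlap (log2 FC −0.41, SE 0.11, limma adjusted p = 0.0113), or −0.63 relative to the median of all genes. It was not called with TPM in place of FPKM (−0.26, limma adjusted p = 0.0921) or with Xist as a covariate (−0.36, limma adjusted p = 0.088). Pcbp1, a chaperone that delivers iron to ferritin, had a log2 FC of 0.55 (limma adjusted p = 0.0274) but kept its call in 8 of 20 alternatives and in 3 of the 10 in which 1 library was left out (without nAAC 1, sham 4 or sham 5). Ncoa4, which takes ferritin to lysosomes, and Pcbp2 were not called.

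Of the genes that control hepcidin in the liver through bone morphogenetic protein signalling, 4 of 12 tested rose and none fell, against 27.1% and 4.60% of all tested genes, with a median log2 FC of 0.08 against 0.22. Smad7, an inhibitor of this signalling, rose from 2.87 ± 0.0638 to 5.93 ± 0.860 FPKM (log2 FC 0.83, SE 0.11, limma adjusted p = 8.77e-05). Acvr1, a type 1 receptor, rose from 4.01 ± 0.584 to 6.19 ± 0.619 FPKM (log2 FC 0.52, limma adjusted p = 0.00318), and the groups of neither gene overlapped. Id1, a target of the pathway, had a log2 FC of 0.53 (limma adjusted p = 0.0362) with overlapping groups, and missed the threshold without nAAC 3, nAAC 4, nAAC 5, sham 2 or sham 3 (log2 FC 0.43 to 0.54, limma adjusted p 0.0657 to 0.0983). It was also not called after median-ratio scaling (0.26, limma adjusted p = 0.255), upper-quartile scaling (0.27, limma adjusted p = 0.211) removal of trends on GC content and length (0.23, limma adjusted p = 0.227) or with Xist as a covariate (0.34, limma adjusted p = 0.282). Smad1, a signal carrier, was the remaining gene that rose (log2 FC 0.44, limma adjusted p = 0.0253), with overlapping groups. Like Slc48a1, it was not called after median-ratio or upper-quartile scaling, with GC content and length trends removed, with Xist or with replicate blocks. The call of Smad1 was also lost at least without nAAC 4 and without sham 3. Epas1 and Cdc42bpa, other mRNAs known to carry an IRE, were not called.

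**Figure D5:**
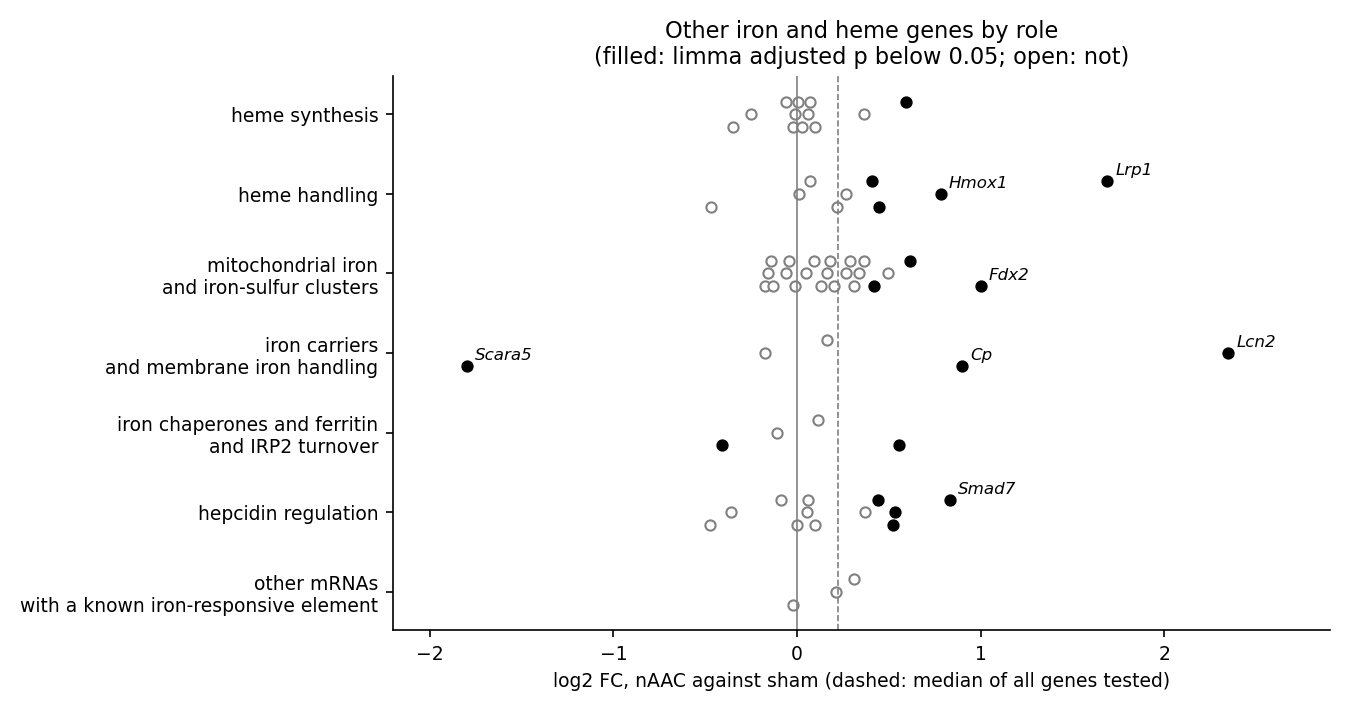
Log2 FC, nAAC against sham, of 67 further iron and heme genes in 7 roles, 1 point per gene, filled where the limma adjusted p was below 0.05, with the median of all tested genes as a dashed line. Filled points lie mostly to the right, up to Lcn2 at 2.35, and Scara5 at −1.80 is farthest to the left.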

How the data were processed

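RNA was extracted from the LV with TRIzol, and libraries were made with the NEBNext Ultra RNA kit, per the labels. For each mouse the authors deposited coverage (mean reads per base, a signal), FPKM and TPM, which are normalized values and not read counts. The column layout is that of StringTie. The submitters' processing notes name the build mm10, and gene coordinates matched GENCODE M21. The aligner, the quantifier, the depth and the use of strand are not given in the sources used here. Without strand, reads of Ftl1 and the antisense Gm10252, of Slc11a2 and Gm5475, and of Hamp and Gm44662 cannot be told apart.

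Rows that share a gene ID were summed. limma 3.58.1 in R 4.3.3 was fitted with an empirical Bayes trend to log2(FPKM + 1), pseudocount 1, for genes whose mean FPKM over all 10 libraries was 1 or more, with no covariate, and p values were adjusted by Benjamini-Hochberg over 11867 genes. The fit was tested on simulated data. Mean ± SD is over 5 mice. Ratios between genes were described with no test. Named genes were the 10 genes and, in each role of the wider list, up to 3 called genes with the largest log2 FC in each direction. Slc48a1, Smad1 and genes not called were named beside them after their values were seen. Hamp was compared by an exact permutation test. The genes, the wider list and the marker lists were chosen with earlier results of these data known. IRE matches were found in GENCODE M21 transcripts, and copies are annotated genes with at least 90% identity over at least 200 bases. Alternatives were scaling by median ratios, by upper quartiles or without mitochondrial genes, TPM, no filter, a mean FPKM of at least 5, a pseudocount of 0.1, a replicate block, Xist as a covariate, removal of GC content and length trends by loess (span 0.3), the DEG threshold, and leaving out each mouse. Python 3.11.15, pandas 2.3.3, scipy 1.17.1 and matplotlib 3.10.9 were used.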

Additional observations from a re-analysis of the deposited data

Results flagged for a closer look

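In the nAAC group, replicate 3 was far above the others in the summed FPKM of erythroid markers, at 8802 against 3396 to 4131 in the other 4 nAAC mice, a gap of 0.864 of the group's range. Its Tfrc level of 30.4 FPKM was the second lowest of the nAAC mice. Of 40 groups of 5 values examined (the 10 genes, 4 ratios between genes and 6 marker sums in each group), this was the only one past the critical value of 0.71, and chance alone gives about 1 in 20, or 2 here. Without nAAC 3 the log2 FC of Tfrc was 1.95 (limma adjusted p = 0.00209).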

How the results depend on the processing

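Over the 9 iron genes tested, 145 of 179 values kept their direction and their side of the threshold, 19 kept the direction and lost the call, and 15 changed sign, all 15 in Steap3, Aco1 or Ireb2, which were not called. With median-ratio scaling, upper-quartile scaling and removal of GC content and length trends, 2 of the 9 genes were called in each case, Tfrc and Slc40a1, and the same 2 passed the DEG threshold. With Xist as a covariate 3 were called (2 rose, 1 fell). The log2 FC of Steap3 was −0.17, −0.16 and −0.28 under those 3 scalings, −0.069 without nAAC 5 and −0.00022 without sham 4, up to 0.18 without another library. That of Aco1 was −0.090, −0.078 and −0.16 under the same scalings. That of Ireb2 was −0.25, −0.24 and −0.054, with −0.011 without mitochondrial genes, −0.04 without nAAC 4, −0.02 without nAAC 5 and −0.18 without sham 4, up to 0.097 without another library. The cause was not tested. Leaving out 1 library at a time gave 4 to 5 called iron genes, 11 to 22 called genes of the wider list and 2899 to 4551 called genes in all.

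Of all tested genes 3757 were called, 85.5% of them upward. The upward share was 52.2% with median-ratio scaling, 54.4% with upper-quartile scaling, 46.9% with GC content and length trends removed, 93.5% with TPM and 80.3% with Xist as a covariate. Called genes numbered 701 under the DEG threshold, 2085 with a mean FPKM of at least 5, where 6505 genes were tested, and 1983 with Xist. Of the wider list, 17 genes were called, 3 under the DEG threshold and 7 with Xist. Of 296 values for its 15 named genes, 236 kept their call, 60 lost it and none changed sign.

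The sources used here name no pairing of mice by replicate number. Whether same-numbered mice shared a litter or batch was not tested. Correlations of same-numbered mice were 0.19, −0.10, −0.32, −0.03 and 0.04, and no mouse correlated best with its own number. With a replicate block 5 iron genes, 14 genes of the wider list and 3426 genes in all were called. Of the 15 genes of the wider list named by rule, only Abcg2 lost its call (adjusted p = 0.053 by limma). Slc48a1 and Smad1, named beside them, also lost theirs.

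Depth was estimated and not counted, so no counting interval can be given, and Hamp listed at 0 cannot be told from a level below detection.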

Other observations

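The other marker lists gave these values. Endothelial markers summed to 133 to 244 FPKM in nAAC and 125 to 199 FPKM in sham samples. Of 5 tested, Kdr alone rose (log2 FC 0.66, limma adjusted p = 0.036), where 27.1% of all tested genes rose and 4.60% fell. Atrial markers summed to 2.03 to 227 FPKM in nAAC and 3.05 to 44.7 FPKM in sham samples, none of 3 tested was called, and Bmp10 was listed at 0 in 9 of 10 mice. Mitochondrial genes held 32.8% to 39.9% of TPM in nAAC and 33.7% to 49.8% in sham libraries.

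Of the 83 further iron and heme genes, 16 had a mean FPKM below 1 and were not tested. The IRE search also found matches in Alas2, Bola3, Epas1, Iba57 and Pcbp2. The ratio of Tfrc to Fth1 differed by 2.19 on the log2 scale without overlap between the groups, and that of Aco1 to Ireb2 by 0.17 with overlap, both described with no test.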
